A study of Mus musculus with 8 samples.

Results

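The mechanistic target of rapamycin (mTOR) complexes and their TSC control comprise 10 genes here, *Mtor*, *Rptor*, *Rictor*, *Deptor*, *Akt1s1*, *Mlst8*, *Tsc1*, *Tsc2*, *Rheb* and *Ddit4l*. They were chosen by gene symbol, and all 10 were found among the 12551 genes of the deposited counts. RNA was from whole tibialis anterior (TA) muscle, a fast-twitch leg muscle, of male mice at 7 weeks of age. Libraries of wild-type (WT, Klotho wt/wt, n = 4) mice were compared with libraries of homozygous mutants (KL-/-, Klotho null/null, n = 4). Both genotypes came from heterozygous breeders on a mixed background, and the mutants lack the hormone and co-receptor Klotho in every tissue. No other allele or agent was named for either genotype. Counts of *Kl* itself were not analysed here, so the genotypes of these libraries rest on the labels. The paper genotyped its mice by PCR. It detected no Klotho protein in KL-/- kidney or muscle and no *Kl* mRNA in KL-/- muscle. KL-/- replicate 3 has its own, later batch date in the labels, and since no other library has it, that date and that sample cannot be told apart.

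mTOR is a serine/threonine kinase that joins nutrient and growth factor signals to protein synthesis, and in skeletal muscle it is best known as a driver of fibre growth. It works in complex 1 (mTORC1), which is defined by raptor (*Rptor*), and in complex 2 (mTORC2), which is defined by rictor (*Rictor*). The TSC1 and TSC2 proteins form a complex that switches off the small GTPase Rheb, the direct activator of mTORC1, and the kinase AKT relieves this brake by phosphorylating TSC2. These steps are carried by phosphorylation and binding of proteins, whereas the values here are transcript abundances in whole muscle.

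Library totals ranged from 20860262 to 26501093 counts in WT and from 22061526 to 29273758 counts in KL-/- muscle with no detectable difference (two-sided exact permutation test, p = 0.371, where 4 against 4 cannot go below 0.0286). The lowest count of a member in a library was 353, for *Mlst8*, so none was near the limit of detection. Muscle identity was clear, since 11 fibre markers, among them *Acta1* and *Ckm*, summed to 163104 to 182592 CPM (counts of a gene scaled by the effective library total) in WT and 187288 to 229975 CPM in KL-/- muscle. Some markers of other cell types passed the test, and their summed levels are given by genotype. The 4 tendon markers ran from 179 to 223 CPM in WT and from 54.8 to 141 CPM in KL-/- muscle, and the 7 fibroblast markers from 911 to 3729 CPM and from 534 to 1675 CPM. The 11 leukocyte markers ran from 68.1 to 143 CPM in WT and from 47.3 to 82.5 CPM in KL-/- muscle, and the 7 Schwann cell markers from 57.8 to 103 CPM and from 107 to 132 CPM. Of the tendon, fibroblast and leukocyte markers 2, 2 and 3 passed the test described below as lower, and of the Schwann cell markers 4 passed as higher. Over all genes, 6.67% passed as lower and 7.35% as higher. Of the 11 fibre markers 0 passed, although their summed levels did not overlap between the genotypes. The 4 adipocyte markers ran from 183 to 202 CPM in WT and from 210.0 to 255 CPM in KL-/- muscle (1 higher), and the 6 endothelial markers from 409 to 614 CPM and from 382 to 420 CPM (1 lower). The 3 satellite cell markers (4.84 to 9.81 CPM and 7.38 to 14.6 CPM) and the erythroid marker *Alas2* (3.35 to 9.57 CPM and 3.07 to 9.16 CPM) overlapped, with 0 passing. The part of these cell types in the results below was not tested. In whole muscle, fewer cells of a type and less RNA per cell cannot be told apart.

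Across the 10 members the log2 fold changes ran from −0.31 to 0.37, and 2 members passed the test. *Tsc1*, which encodes hamartin, the partner that stabilizes TSC2, rose in KL-/- muscle with a log2 fold change of 0.34, or 26.9%. *Mlst8*, which encodes the mLST8 (GβL) subunit held in common by mTORC1 and mTORC2, fell by 0.31 on the log2 scale, or 19.1%. The kinase itself, the defining subunits *Rptor* and *Rictor*, the inhibitors *Deptor* and *Akt1s1*, *Tsc2*, *Rheb* and *Ddit4l* did not pass the threshold. The test was edgeR's quasi-likelihood test at a false discovery rate (FDR) under 0.05 over all 12551 genes. The calls of 1 higher and 1 lower member, 2 of 10 in all, stand against 14.0% of all genes called, 7.35% as higher and 6.67% as lower, and are near that background. Over the members the log2 fold changes had a median of 0.079, against −0.016 over all genes.

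**Figure D1:**
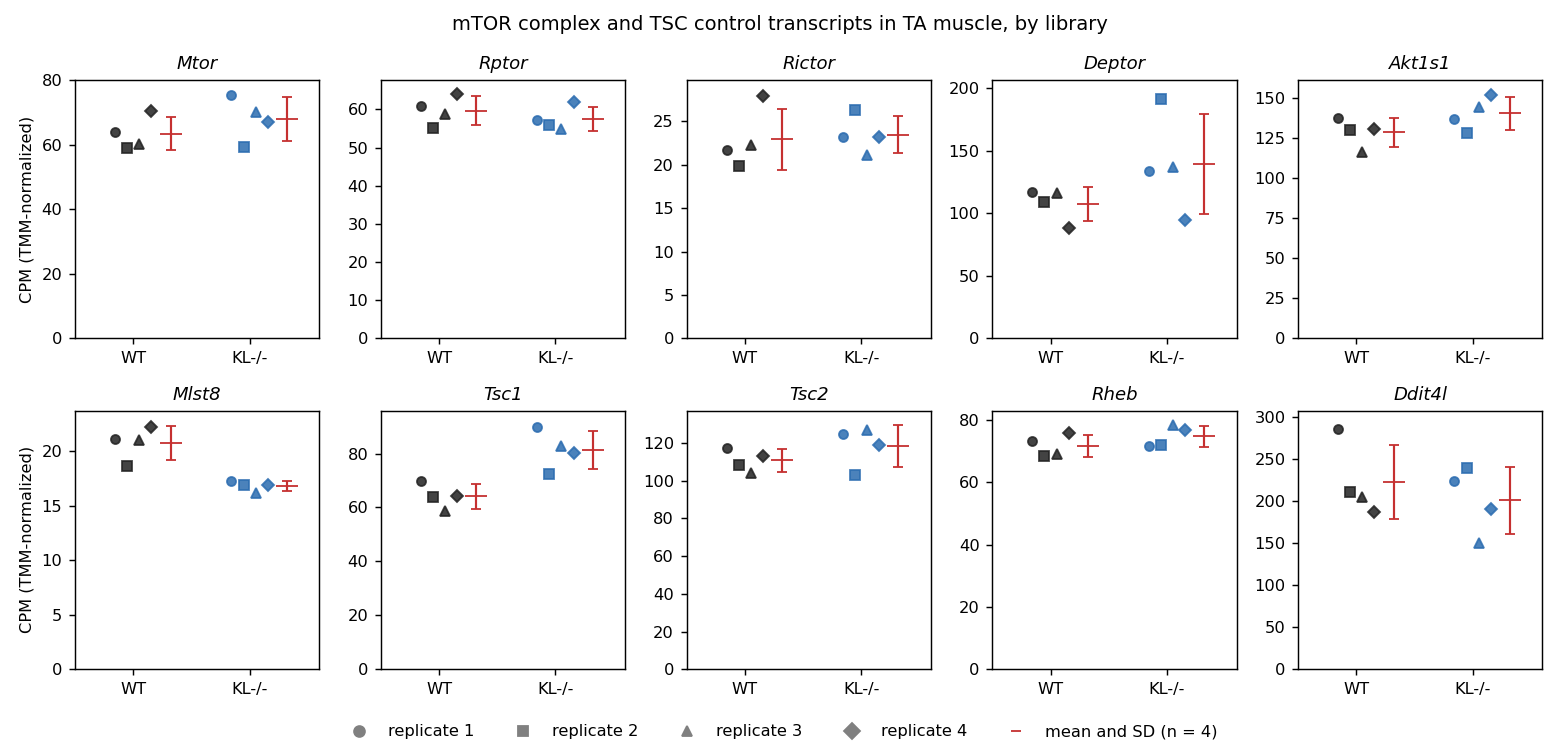
TMM-normalized CPM (vertical axis, starting at 0) of the 10 members in each WT (black) and KL-/- (blue) library, with 1 marker shape per replicate number and the mean and SD (n = 4) in red. *Mlst8* and *Tsc1* are the panels in which the genotypes do not overlap.

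*Tsc1* lies on the plus strand of chromosome 2, from 28641233 to 28691172 of mm10, with 23 merged exons. It was at 69.8, 63.7, 58.6 and 64.3 CPM in WT replicates 1 to 4 and at 89.8, 72.5, 82.8 and 80.3 CPM in KL-/- replicates 1 to 4. Every KL-/- library lay above every WT library, a separation that 10.2% of all genes showed in this direction. The means were 64.1 ± 4.60 CPM (SD, n = 4) and 81.3 ± 7.16 CPM (SD, n = 4). On the log2 scale the difference was 0.34 (standard error 0.079, 95% interval 0.17 to 0.52, FDR = 0.0231 by edgeR's quasi-likelihood test). The size was steady between 0.30 and 0.40 when single libraries were left out, but the call was not. The FDR of *Tsc1* was 0.0626 without WT replicate 2, 0.0648 without WT replicate 3, 0.0614 without KL-/- replicate 3, the library with the other date, and 0.0571 without KL-/- replicate 4. Scaling by library totals alone, without TMM factors, shifted the median over all genes from −0.016 to −0.13, and *Tsc1* was then at 0.23 (FDR = 0.0720).

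*Mlst8* lies on the minus strand of chromosome 17, from 24473550 to 24479078, with 9 merged exons. It was at 21.1, 18.6, 21.0 and 22.2 CPM in WT replicates 1 to 4 and at 17.3, 16.8, 16.1 and 16.9 CPM in KL-/- replicates 1 to 4. Every KL-/- library lay below every WT library, which 9.47% of all genes showed, and the 4 KL-/- values were tightly grouped. Mean levels were 20.7 ± 1.53 CPM and 16.8 ± 0.488 CPM (SD, n = 4). On the log2 scale they differed by −0.31 (standard error 0.074, 95% interval −0.47 to −0.14, FDR = 0.0273 by edgeR's quasi-likelihood test). Without KL-/- replicate 3 it was −0.29 (FDR = 0.0800), and the FDR was 0.0602, 0.0711, 0.0586 and 0.0674 without WT replicates 1, 3 and 4 and KL-/- replicate 4. Exons of *Bricd5* on the opposite strand cover 29.6% of the counted exon length of *Mlst8*. Whether reads were assigned by strand is not given, so reads of these overlapping genes cannot be told apart.

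The sequences upstream of the 2 called genes are shown with that of *Mtor*, whose transcript did not pass the test, as the 250 bases before the RefSeq start of each gene on GRCm38.p6, 5′ to 3′ on the strand of the gene. Capitals mark matches, on either strand, to CACGTG (an E-box), GTAAACA (a forkhead motif), CCAAT (bound by NF-Y), GGGCGG (a GC box) or TATAAA (found in some core promoters).
*Tsc1* (chr2:28640983-28641232, plus strand): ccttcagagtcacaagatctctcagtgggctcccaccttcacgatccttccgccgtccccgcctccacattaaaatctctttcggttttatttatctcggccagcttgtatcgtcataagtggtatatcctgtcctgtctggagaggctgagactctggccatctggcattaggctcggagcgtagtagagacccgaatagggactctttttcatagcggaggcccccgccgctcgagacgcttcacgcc
*Mlst8* (chr17:24479079-24479328, minus strand): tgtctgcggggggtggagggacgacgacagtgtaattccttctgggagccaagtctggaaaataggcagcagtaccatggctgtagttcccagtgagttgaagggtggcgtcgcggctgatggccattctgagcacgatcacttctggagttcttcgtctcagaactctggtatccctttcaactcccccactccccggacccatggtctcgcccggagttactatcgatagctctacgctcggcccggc
*Mtor* (chr4:148448332-148448581, plus strand): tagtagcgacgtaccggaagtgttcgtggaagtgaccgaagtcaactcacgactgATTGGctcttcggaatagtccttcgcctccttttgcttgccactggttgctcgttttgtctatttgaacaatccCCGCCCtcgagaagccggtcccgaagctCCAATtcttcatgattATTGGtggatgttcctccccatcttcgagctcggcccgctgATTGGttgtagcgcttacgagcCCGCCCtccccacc
The *Tsc1* and *Mlst8* stretches hold none of these letters in either direction, whereas that of *Mtor* holds CCAAT at 4 and GGGCGG at 2 places. In windows of 300 bases, from 250 before to 50 after the start, CCAAT was present in 37.4% of 32851 RefSeq promoters, GGGCGG in 35.7%, TATAAA in 13.6%, CACGTG in 7.15% and GTAAACA in 3.65%. Windows were found for 9 of the 10 members. Among these, GGGCGG was in 5, CCAAT in 2, TATAAA in 1 (*Ddit4l*), CACGTG in 1 (*Rheb*) and GTAAACA in 0. A match or its absence describes these letters only.

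The catalytic subunit *Mtor* (chromosome 4, 148448582 to 148557685, 58 merged exons) was at 63.9, 58.9, 60.3 and 70.4 CPM in WT and at 75.4, 59.3, 69.96 and 66.9 CPM in KL-/- replicates 1 to 4. KL-/- replicate 2 lay within the lower WT values, and only KL-/- replicate 1 lay above every WT library. *Mtor* had a log2 fold change of 0.100 (95% interval −0.093 to 0.29, FDR = 0.450), and it turned to −0.017 with library totals and to 0.17 (FDR = 0.133) without KL-/- replicate 2. Its interval leaves room for a difference of up to 0.29 on the log2 scale.

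The subunits that define the complexes stayed close to their WT levels. *Rptor* (chromosome 11, 119602905 to 119899591), the scaffold that brings substrates to mTORC1, was at 61.0, 55.1, 58.7 and 64.1 CPM in WT and at 57.2, 56.0, 55.0 and 62.0 CPM in KL-/- muscle. *Rictor* (chromosome 15, 6708381 to 6800400), the scaffold of mTORC2, was at 21.6, 19.8, 22.3 and 27.9 CPM in WT and at 23.2, 26.3, 21.1 and 23.1 CPM in KL-/- muscle. In each gene the genotypes overlapped widely. Log2 fold changes were −0.054 for *Rptor* (95% interval −0.20 to 0.094, FDR = 0.607) and 0.031 for *Rictor* (95% interval −0.22 to 0.28, FDR = 0.874), the latter turning to −0.089 with library totals, −0.032 without WT replicate 2 and −0.020 without KL-/- replicate 2.

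The inhibitory partners of mTOR were higher on average but did not pass. *Deptor* (chromosome 15, 55112317 to 55259273), which encodes a protein that binds and restrains mTOR, was at 117, 109, 116 and 88.0 CPM in WT and at 134, 192, 137 and 94.8 CPM in KL-/- muscle. Of the 4 KL-/- libraries, 3 lay above every WT library, and replicate 4 lay below WT replicates 1, 2 and 3. The KL-/- libraries varied more than those of any other member, with a coefficient of variation of 28.6%. *Deptor* had the highest log2 fold change of the 10 members, at 0.37 (standard error 0.18, 95% interval −0.040 to 0.79, FDR = 0.194). Without KL-/- replicate 2 the log2 fold change was 0.19, and without KL-/- replicate 4 it was 0.52, with an FDR of 0.0709 or more in each fit that left out 1 library. *Akt1s1* (chromosome 7, 44849224 to 44855421) encodes PRAS40, an AKT substrate that blocks mTORC1 until it is phosphorylated. It was at 137, 130, 116 and 131 CPM in WT and at 137, 128, 144 and 152 CPM in KL-/- muscle, with a log2 fold change of 0.13 (95% interval −0.037 to 0.29, FDR = 0.258) that shrank to 0.0087 with library totals.

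*Tsc2* (chromosome 17, 24595816 to 24632627), which encodes tuberin, the GTPase-activating subunit that acts on Rheb, was at 118, 109, 104 and 113 CPM in WT and at 125, 103, 127 and 119 CPM in KL-/- muscle. KL-/- replicate 2 was the lowest of all 8 libraries and the other 3 KL-/- libraries were the highest. *Tsc2* had a log2 fold change of 0.097 (95% interval −0.074 to 0.27, FDR = 0.407), or −0.020 with library totals and 0.17 (FDR = 0.0665) without KL-/- replicate 2. Exons of *Pkd1* on the opposite strand cover 10.8% of its counted length. *Rheb* (chromosome 5, 24802823 to 24842361), the mTORC1 activator, was at 73.1, 68.3, 69.1 and 75.9 CPM in WT and at 71.6, 72.0, 78.5 and 76.6 CPM in KL-/- muscle. The genotypes overlapped, and the coefficient of variation was 4.96% in WT and 4.57% in KL-/- muscle. *Rheb* had a log2 fold change of 0.061 (95% interval −0.072 to 0.19, FDR = 0.512), or −0.058 with library totals.

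*Ddit4l* (chromosome 3, 137623672 to 137628332) encodes REDD2, a muscle-enriched relative of the stress-induced mTORC1 inhibitor REDD1, the product of *Ddit4*. It was at 287, 212, 206 and 187 CPM in WT and at 224, 240, 151 and 190 CPM in KL-/- muscle. WT replicate 1 was the highest and KL-/- replicate 3 the lowest library, with the other 6 between 187 and 240 CPM. *Ddit4l* had a log2 fold change of −0.15 (standard error 0.16, 95% interval −0.51 to 0.22, FDR = 0.567). Leaving out WT replicate 1 brought it to −0.0023, and leaving out KL-/- replicate 3 to −0.031.

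The paralog *Ddit4* was at 9.43, 9.25, 6.06 and 5.41 CPM in WT and at 16.98, 16.1, 141 and 41.5 CPM in KL-/- muscle. KL-/- replicate 3 thus had the highest level of *Ddit4* and the lowest of *Ddit4l*. Per kilobase of exon, *Ddit4l* was at 81.9 ± 16.1 and *Ddit4* at 4.47 ± 1.25 CPM per kb in WT muscle, and they were at 73.9 ± 14.6 and 32.03 ± 35.3 CPM per kb in KL-/- muscle (SD, n = 4). The log2 fold change of *Ddit4* was 2.85 (FDR = 0.0266, edgeR's quasi-likelihood test), or 1.73 without KL-/- replicate 3 (FDR = 0.0283). By limma-voom it was 2.31 (FDR = 0.0813) and with the replicate number as a block 2.26 (FDR = 0.0838). The call of *Ddit4* was lost without any 1 of the 4 WT libraries or without KL-/- replicate 4, with an FDR of up to 0.0765.

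Levels were compared between genes as CPM per kilobase of the counted exons. That length merges all isoforms of a gene, and the SDs and ranges cover only the spread between libraries. In WT muscle the order ran from *Ddit4l* at 81.9 ± 16.1 through *Akt1s1* at 57.0 ± 3.98, *Rheb* at 47.1 ± 2.34, *Tsc2* at 17.2 ± 0.921, *Deptor* at 12.4 ± 1.55, *Rptor* at 8.50 ± 0.540, *Tsc1* at 8.31 ± 0.596, *Mtor* at 7.37 ± 0.597 and *Mlst8* at 6.16 ± 0.453 to *Rictor* at 2.46 ± 0.375 CPM per kb (SD, n = 4). The ranges of neighbours in this order were separate except for *Rptor* with *Tsc1* and *Tsc1* with *Mtor*. By this measure, transcripts of the GTPase Rheb and of PRAS40 were several times as abundant as that of the kinase. *Rictor* was the lowest member. In KL-/- muscle *Tsc1* at 10.5 ± 0.928 CPM per kb lay above *Rptor* at 8.19 ± 0.443 in 4 of 4 libraries, with separate ranges, where in WT muscle it did so in 2 of 4 libraries. *Mlst8* at 4.99 ± 0.145 CPM per kb stayed between *Mtor* at 7.90 ± 0.781 and *Rictor* at 2.52 ± 0.231. In KL-/- muscle the ranges overlapped for *Ddit4l* with *Akt1s1*, *Tsc2* with *Deptor*, *Deptor* with *Tsc1* and *Rptor* with *Mtor*.

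**Figure D2:**
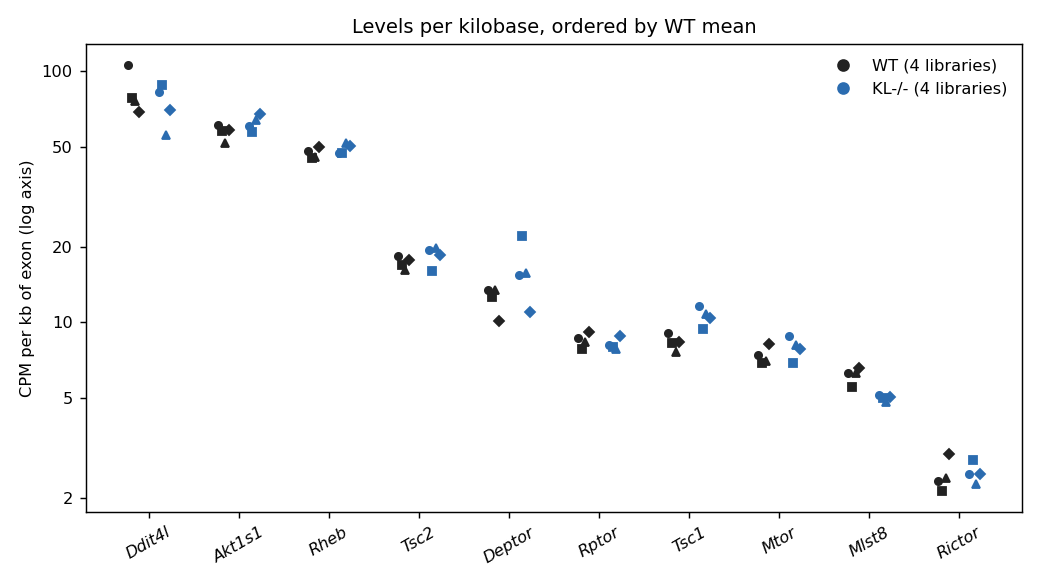
CPM per kilobase of counted exon (log axis) for each member in 4 WT (black) and 4 KL-/- (blue) libraries, with members ordered by their WT mean and 1 marker shape per replicate number. Levels run from 81.9 CPM per kb for *Ddit4l* to 2.46 CPM per kb for *Rictor* in WT muscle.

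Ratios of members within a library do not depend on the scaling of libraries and are given as a description, without a test. The log2 ratio of *Tsc1* to *Tsc2* was −1.02, −1.03, −1.09 and −1.08 in WT and −0.74, −0.77, −0.88 and −0.83 in KL-/- replicates 1 to 4. The genotypes did not overlap, and the means differed by 0.25 on the log2 scale, with SDs of 0.036 in WT and 0.065 in KL-/- muscle. With each library left out in turn the difference ranged from 0.23 to 0.27. The ratio of *Mlst8* to *Mtor*, which was chosen after the values of *Mlst8* had been seen, was −0.24, −0.31, −0.17 and −0.31 in WT and −0.77, −0.46, −0.77 and −0.63 in KL-/- muscle, again without overlap, and the means differed by −0.40 on the log2 scale.

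The genotypes overlapped in the other 6 ratios. The log2 ratio of *Rptor* to *Rictor*, the scaffolds of mTORC1 and mTORC2, had a mean and SD of 1.80 ± 0.135 in the 4 WT and 1.70 ± 0.149 in the 4 KL-/- libraries. The ratio of *Mtor* to *Tsc2* was −1.23 ± 0.094 and −1.22 ± 0.058, and that of *Rheb* to *Tsc2* was 1.45 ± 0.055 and 1.42 ± 0.119. In all 6 overlapping ratios, the following ones included, the difference between genotype means was smaller than the SD of either genotype. The ratio of *Akt1s1* to *Mtor* was 2.95 ± 0.121 and 2.98 ± 0.139, and that of *Deptor* to *Mtor* was 0.74 ± 0.292 and 0.98 ± 0.502. The ratio of *Ddit4l* to *Mtor* was 3.46 ± 0.309 in WT and 3.21 ± 0.373 in KL-/- muscle.

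**Figure D3:**
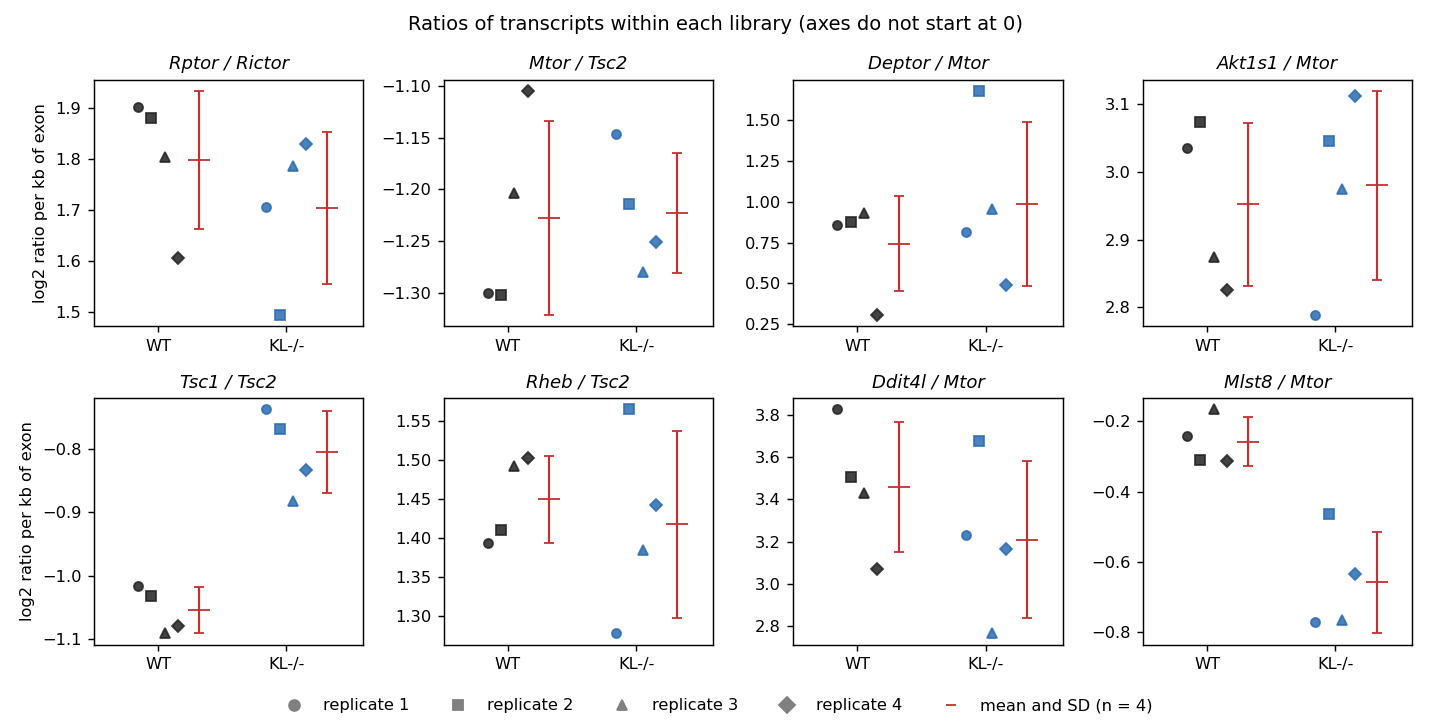
Log2 ratios of 2 members per kilobase of exon within each library (vertical axes do not start at 0), with 4 WT (black) and 4 KL-/- (blue) libraries and the mean and SD in red. *Tsc1* over *Tsc2* lies higher and *Mlst8* over *Mtor* lower in all 4 KL-/- libraries.

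With genotype means subtracted, the correlation of log2 CPM over the 8 libraries was positive in 29 and negative in 16 of the 45 pairs of members, with a median of 0.19. The highest values were 0.90 between *Tsc1* and *Tsc2*, 0.80 between *Mtor* and *Tsc2* and 0.78 between *Rptor* and *Mlst8*. The lowest were −0.67 between *Deptor* and *Akt1s1* and −0.65 between *Deptor* and *Rptor*, whereas *Deptor* was at 0.48 with *Ddit4l* and −0.028 with *Rictor*. These values describe 8 libraries that share depth and tissue composition within each sample. Among 11987 other genes whose mean log2 CPM was 0 or more, the patterns most like that of *Tsc1* over the 8 libraries were those of *Wnk2*, *Ubap2* and *Zc3h4*, with a Pearson correlation of 0.995, 0.985 and 0.985. Those most like *Mlst8* were *Rasa4*, *Lrrc42* and *Mmachc*, at 0.994, 0.982 and 0.977. The genotype difference enters these values. They are also the 3 highest of 11987 for each member, and over 8 libraries such a selection gives high values by itself. With genotype means subtracted they were 0.985, 0.955 and 0.948 for *Tsc1* and 0.990, 0.896 and 0.888 for *Mlst8*, for the same selected genes.

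The rest of the pathway was described with 6 lists of 68 genes, of which 67 were measured. Of these, 9 were higher and 1 was lower in KL-/- muscle at an FDR under 0.05, against 7.35% and 6.67% of all genes. Their median was 0.066 on the log2 scale, and all 4 KL-/- libraries lay above all WT libraries in 16 genes and below them in 3, against 10.2% and 9.47% of all genes.

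The list of mTORC1 substrates and translation effectors held the most of these, with 5 of 17 higher and 0 lower. Over all genes, 7.35% were called higher and 6.67% lower. The median log2 fold change of the list was 0.20. *Eif4ebp1*, which encodes the cap-dependent translation repressor that mTORC1 inactivates by phosphorylation, was at 38.7, 34.3, 29.2 and 32.1 CPM in WT and at 69.4, 51.6, 76.7 and 68.9 CPM in KL-/- muscle. The genotypes did not overlap, and *Eif4ebp1* rose by 0.99 on the log2 scale (standard error 0.13, FDR = 0.00307). *Eif4b*, an initiation factor downstream of the S6 kinases, was at 238, 239, 213 and 230 CPM in WT and at 335, 315, 335 and 347 CPM in KL-/- muscle. It rose by 0.53 on the log2 scale (standard error 0.060, FDR = 0.00244). *Rps6*, the ribosomal protein phosphorylated by the S6 kinases, rose by 0.36 (FDR = 0.00583), and *Maf1*, the repressor of RNA polymerase III that mTORC1 phosphorylates, by 0.47 (FDR = 0.0205). *Rps6kb2*, which encodes an S6 kinase, was the other gene of the list to pass, at 0.26 (FDR = 0.0483), close to the threshold. Its call was lost with the replicate number as a block, and it was not followed with single libraries left out. *Eif4ebp1*, *Eif4b* and *Rps6* kept an FDR under 0.05 with each library left out, whereas *Maf1* lost the call without WT replicates 2 or 3 or KL-/- replicates 3 or 4. *Rps6* has many pseudogenes, between which the counting could have split reads.

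Among 11 genes of the TSC-Rheb arm and its kinases, 3 were higher and 0 lower, against 7.35% and 6.67% of all genes. The median of the list was 0.15. Beside *Ddit4*, described above, *Akt1* was among them, which encodes a kinase that phosphorylates TSC2 and PRAS40. It was at 70.4, 80.9, 78.2 and 69.6 CPM in WT and at 115, 75.8, 108 and 107 CPM in KL-/- muscle. KL-/- replicate 2 lay within the WT range and the other 3 KL-/- libraries lay above it. The means were 74.8 ± 5.65 and 101 ± 17.4 CPM (SD, n = 4), and *Akt1* rose by 0.44 on the log2 scale (FDR = 0.0415). Its call was lost in 7 of the 8 fits that left out 1 library, at an FDR of up to 0.107, and it was at 0.41 (FDR = 0.103) without KL-/- replicate 3. The call of *Akt1* was also lost by limma-voom (FDR = 0.0504), with library totals (0.32, FDR = 0.0950) and with the replicate number as a block (FDR = 0.101).

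Of 16 measured genes of the GATOR and KICSTOR complexes and the amino acid sensors, 1 was higher and 0 were lower. The shares over all genes were 7.35% and 6.67%, and the median of the list was 0.0070. The higher gene was *Sesn1*, which encodes a sestrin that restrains mTORC1 when leucine is scarce. It was at 28.5, 25.6, 25.2 and 19.7 CPM in WT and at 32.9, 41.1, 56.1 and 47.8 CPM in KL-/- muscle. All KL-/- libraries lay above all WT libraries, and the log2 fold change of *Sesn1* was 0.85 (standard error 0.16, FDR = 0.0125) and stayed past the threshold with each library left out. None of 13 genes of the Rag GTPases, the Ragulator and folliculin passed (median 0.043). The smallest p among them was that of *Rragb*, at 0.63 (FDR = 0.0552), with 35 to 106 counts per library and overlapping genotypes. It passed in 2 of 9 alternative fits, DESeq2 (FDR = 0.0316) and the likelihood ratio test (FDR = 0.0319). The highest FDR of these fits was 0.0853, with library totals. With 1 library left out *Rragb* passed in 2 of 8 fits, and the FDR was up to 0.139. None of 6 genes of the other mTORC2 subunits and mTOR maturation factors passed (median −0.0077), and the smallest p was that of *Prr5*, an mTORC2 subunit, at −0.38 (FDR = 0.211).

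Of 4 mTORC2 substrates 1 was lower, against 6.67% of all genes, namely *Prkca*, which encodes protein kinase C alpha. It was at 130, 125, 133 and 156 CPM in WT and at 99.2, 108, 87.8 and 94.0 CPM in KL-/- muscle, without overlap. The log2 fold change of *Prkca* was −0.48 (standard error 0.087, FDR = 0.00994) and stayed past the threshold with each library left out. The median of the 4 genes was −0.0084.

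**Figure D4:**
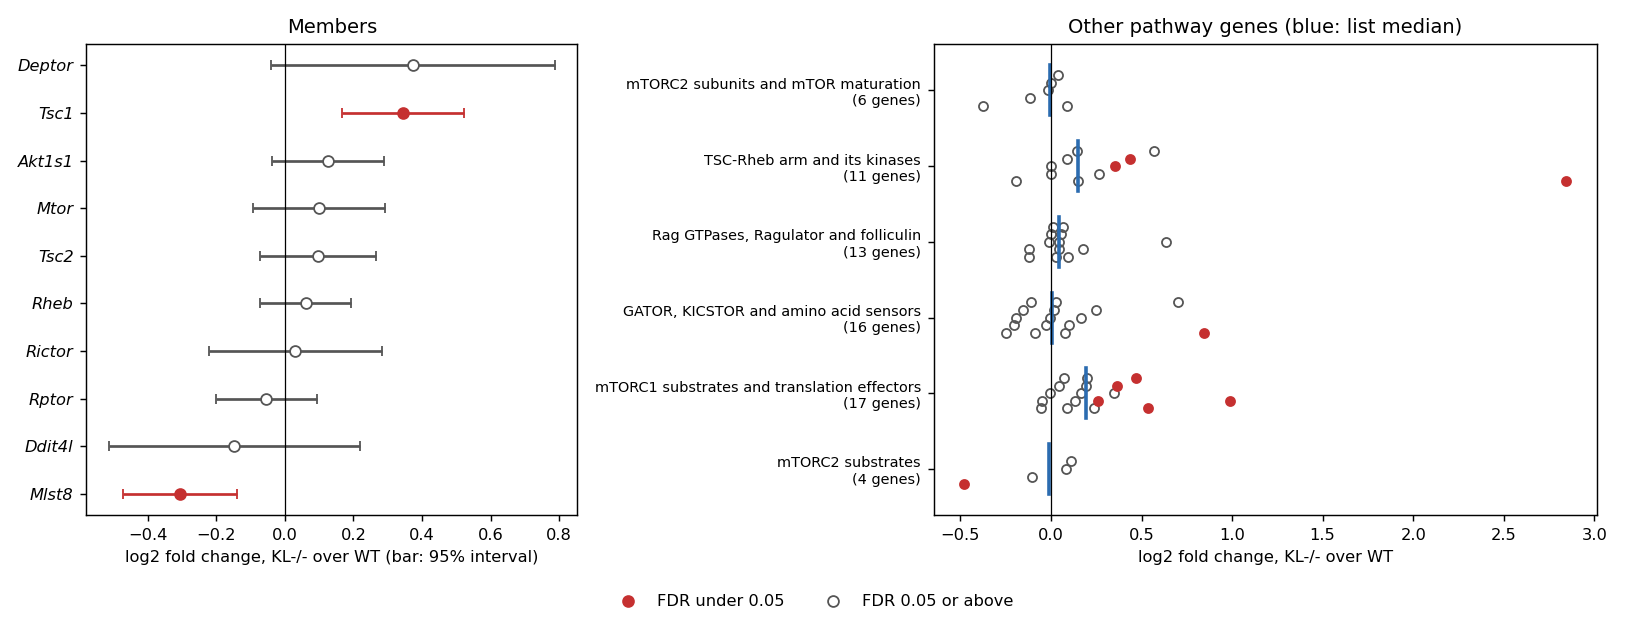
Log2 fold changes of KL-/- over WT muscle (horizontal axes) for the members with their 95% intervals (left) and for 67 other pathway genes by list with the list median in blue (right), where red points have an FDR under 0.05. *Tsc1* and *Mlst8* are the members in red, and *Ddit4* at 2.85 lies farthest to the right.

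**Figure D5:**
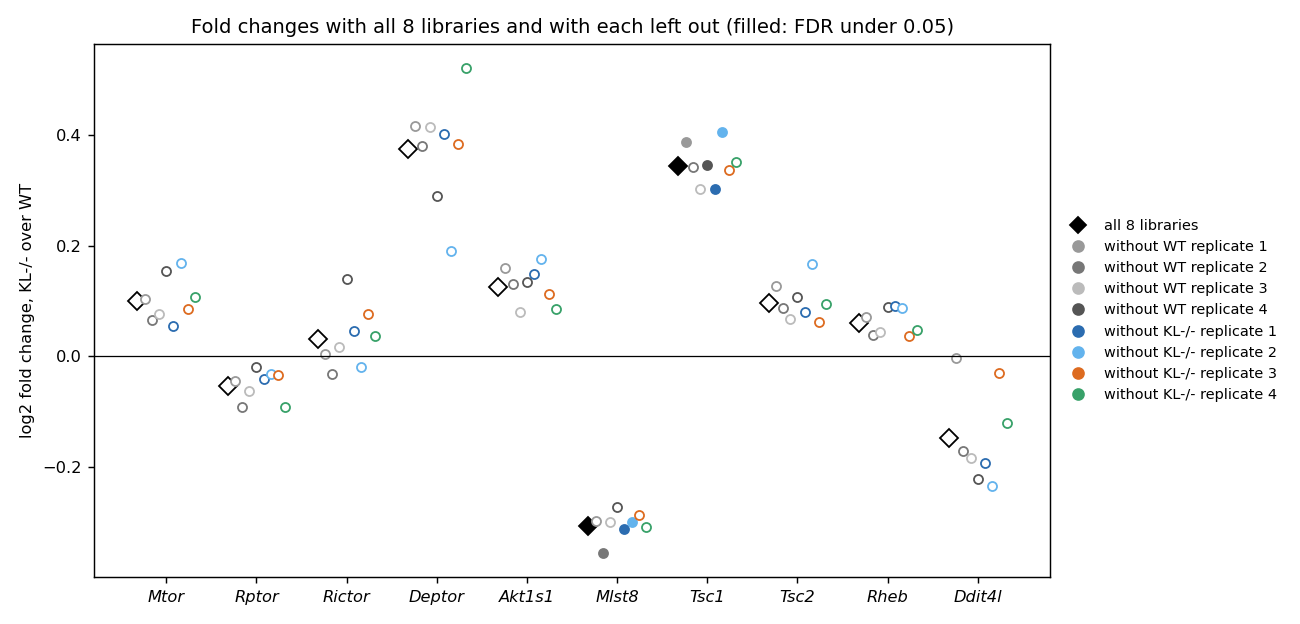
Log2 fold changes of KL-/- over WT muscle (vertical axis) for each member with all 8 libraries (diamonds) and with 1 library left out (circles), filled where the FDR is under 0.05. *Tsc1* stays between 0.30 and 0.40 and *Mlst8* between −0.35 and −0.27, while points of both change between filled and open.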

How the data were processed

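RNA of TA muscles of 4 WT and 4 KL-/- samples was sequenced by the submitters, and the deposited values are raw read counts per gene, without normalization. Per the methods, the authors aligned with STAR (mm10), dropped alignments of low quality and used featureCounts. The annotation release and strand setting are not given in the sources used here. The deposited table held 12551 genes. Genotypes come from the sample titles. Each library has its own number, and the paper gives n = 4 per group for the sequenced TA muscles. Neither the labels nor the paper says that each library is a separate mouse, so p-values measure the spread between these samples.

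Testing was done in R 4.3.3 by edgeR 4.0.16 (default filter on low counts, which kept 12551 genes, TMM factors, genotype as the only term, quasi-likelihood test, Benjamini-Hochberg adjustment, FDR under 0.05), and the test was checked on simulated counts. Standard errors and 95% intervals were derived from the test statistic. Levels between genes used the exon length in the deposited table, which merges all isoforms. Overlapping genes were taken from GENCODE M21 and promoters from RefSeq, on GRCm38 as mm10. Alternatives were RLE factors, library totals, a minimum of 10 counts in every sample, no filter, DESeq2 1.42.0, limma-voom (limma 3.58.1), the likelihood ratio test, the replicate number as a block, each library left out and, added after the data had been seen, the edgeR 3 quasi-likelihood test. The floor of 3 counts was 0.105 to 0.143 CPM. Members and lists were chosen with earlier results of these data known. All members are named. Of each list, up to 4 genes past the threshold by absolute log2 fold change are named, or the gene with the smallest p, with the paralog *Ddit4* and, chosen after its value was seen, *Rps6kb2*. A result that the naming rule covers is not reported here. The pathway gene *Bmt2* was not analysed here, nor were the markers *Plin1*, *Lep* and 4 haemoglobin genes.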

Additional observations from a re-analysis of the deposited data

Results flagged for a closer look

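WT replicate 4 lay apart from the other WT libraries in the log2 ratio of *Deptor* to *Mtor*, at 0.31 against 0.86 to 0.93. It had the lowest *Deptor* and the highest *Mtor* level of the WT libraries. This was 1 of 58 groups of 4 libraries examined for a far sample, and chance alone puts about 1 in 20 such groups past the limit. The genotypes overlapped in this ratio with that library included.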

How the results depend on the processing

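Under DESeq2, limma-voom, the likelihood ratio test, the edgeR 3 test, RLE factors and the filter on 10 counts, the member calls were 1 higher and 1 lower, as in the report, and no filter left the same genes tested. With library totals, 492 of all genes were higher and 2127 lower, against 922 and 837, so that 18.8% of calls were higher against 52.4%. Members higher then numbered 0 and pathway genes lower 7, and *Mtor* (−0.017), *Rictor* (−0.089), *Tsc2* (−0.020) and *Rheb* (−0.058) turned negative. DESeq2 called 14 pathway genes higher. With the replicate number as a block, 348 of all genes were higher and 323 lower, 0 members were lower (*Mlst8* −0.30, FDR = 0.0824) and 4 pathway genes were higher, and *Akt1*, *Ddit4*, *Maf1* and *Rps6kb2* were among those that lost the call. The correlations of deviations between same-numbered samples were −0.15, 0.18, −0.37 and 0.017, and 1 of 4 WT samples correlated best with its own number. No sign of pairing by number was thus seen, but so few samples cannot exclude it. With each library left out, genes higher ranged from 404 to 1521 and lower from 343 to 1234, members higher and lower each from 0 to 1, pathway genes higher from 4 to 14 and lower 1 in each. The highest counts came without KL-/- replicate 2, and without WT replicates 2 or 3 or KL-/- replicates 3 or 4 at most 435 genes were higher. *Rictor* ranged from −0.032 (without WT replicate 2) to 0.14, and was −0.020 without KL-/- replicate 2. The causes were not tested.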
